A study of Rattus norvegicus with 35 samples.

Results

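The response of cardiomyocytes (CMs) from neonatal rats to ultraviolet C (UVC) was measured on 5 of the 35 arrays of the study, all arrays whose titles name cardiac cells after UV or after sham-UV. Ventricular cells (strain not given in the labels) were pre-plated to enrich for CMs and received 10 J/m2 of UVC at room temperature (3 arrays), or were rinsed and handled in the same way without UV (2 arrays). After another 24 h both groups were trypsinised and passed centrifugal elutriation, which separates cells by size and density, and RNA of the CM-enriched fractions was hybridised to Affymetrix rat genome arrays. The number in the title ties a UV array to the sham-UV array of the same experiment, which gives experiments 1 and 2. UV array 3 lacks a matching sham-UV array, so its values are shown but do not enter the test. The fractions keep some non-myocytes, and fewer cells of a type and less RNA per cell cannot be told apart.

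UVC is absorbed by DNA bases and links neighbouring pyrimidines, which stalls RNA polymerase on the transcribed strand until nucleotide excision repair removes the lesion. Such lesions stabilise p53, a transcription factor that drives genes of cell cycle arrest, repair and cell death. Proteins, RNA and membranes also absorb UVC, and cells answer with stress kinases, chaperones, antioxidant enzymes and protein breakdown. CMs hardly divide after birth, so they meet such damage with the sarcomeres and calcium stores of a working muscle cell in place.

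Before the comparison, the arrays were brought to a common scale, raised to a floor of 6.90 arbitrary units and quantile normalized. The deposited intensities had a 2% trimmed mean near 200.4 on the arrays of experiment 1 and near 1002 on those of experiment 2 and on UV array 3. No pair mixed the scales. Between 14.5% and 21.9% of the values of the 5 arrays lay at the floor. Spearman's rho across probe-sets was 0.951 to 0.960 within the groups and 0.930 to 0.943 between UV and sham-UV. The ratio of the 3' to the 5' control probe-sets for Actb, a sign of RNA length, was 1.18 and 0.907 on the sham-UV arrays and 1.80, 1.17 and 1.23 on the UV arrays. For Gapdh it was 1.0 and 1.13 against 0.975, 1.16 and 1.14, so that UV array 1 stood apart for Actb. The part of this in the results was not tested. Among 14 CM markers 12 were on the array, and the myosin gene Myh6 stood at 5812 and 6744 on the sham-UV arrays and 4779, 5444 and 5365 on the UV arrays. Cardiac troponin T (Tnnt2) stood at 6953 and 7001 on the sham-UV arrays and 6268, 6353 and 6568 on the UV arrays, so the defining genes of CMs were bright on every array. The macrophage gene C1qb lay at the floor on all 5 arrays and Cd74, the invariant chain of antigen presenting cells, reached no more than 7.97. Of 12 leukocyte markers on the array, 6 endothelial and 3 red cell markers 0 were called by the gene rule given below. The leukocyte marker Aif1 passed the test upwards through its brightest probe-set, and lost the call in 8 of 12 other settings of the fit. The summed intensity of the leukocyte markers ran from 387 to 522 and that of the endothelial markers from 201 to 582, the highest on sham-UV array 1.

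After UV, 754 of 8740 probe-sets (8.63%) were up-regulated and 714 (8.17%) were down-regulated (limma, Benjamini-Hochberg adjusted p under 0.05). The change is given throughout as the mean log2 difference of UV and sham-UV over experiments 1 and 2 with its standard error. That error rests on residuals pooled over all arrays of the study, with other cells and stressors included. It is not a measure of the agreement between experiments 1 and 2 alone. Some called changes were unequal, such as Pgam2 with 0.48 in experiment 1 and 2.32 in experiment 2. Others were close, such as Fdps at its brightest probe-set with -1.73 and -1.69. Genes were counted as called where 50% or more of their probe-sets passed the same way, which held for 481 of 4736 genes upwards (10.2%) and for 438 downwards (9.25%). With the stricter threshold of 0.005, 283 probe-sets passed upwards and 312 downwards. The median change was 0.92 over the probe-sets called higher and -1.02 over those called lower. That over all genes was 0, where the normalization holds it, so a shift of all genes together would not show. UV array 3 lay above both sham-UV arrays for 693 (91.9%) of the probe-sets called higher, as it did for 33.8% of all probe-sets. It lay below both for 591 (82.8%) of those called lower, against 29.1% of all. The sham-UV arrays enter both sides of this count, so UV array 3 is not an independent repeat. All 3 UV arrays lay above both sham-UV arrays for 16.6% of the probe-sets and below both for 15.3%. Without experiment 1 the calls numbered 427 higher and 437 lower, of which 302 and 357 were shared with those above, and without experiment 2 534 and 568, of which 419 and 416 were shared. Each of these fits leaves 1 pair, whose spread is taken from the other groups of the study. Without the pairing, all 3 UV arrays were set against both sham-UV arrays, and 466 probe-sets were higher and 349 lower.

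**Figure D1:**
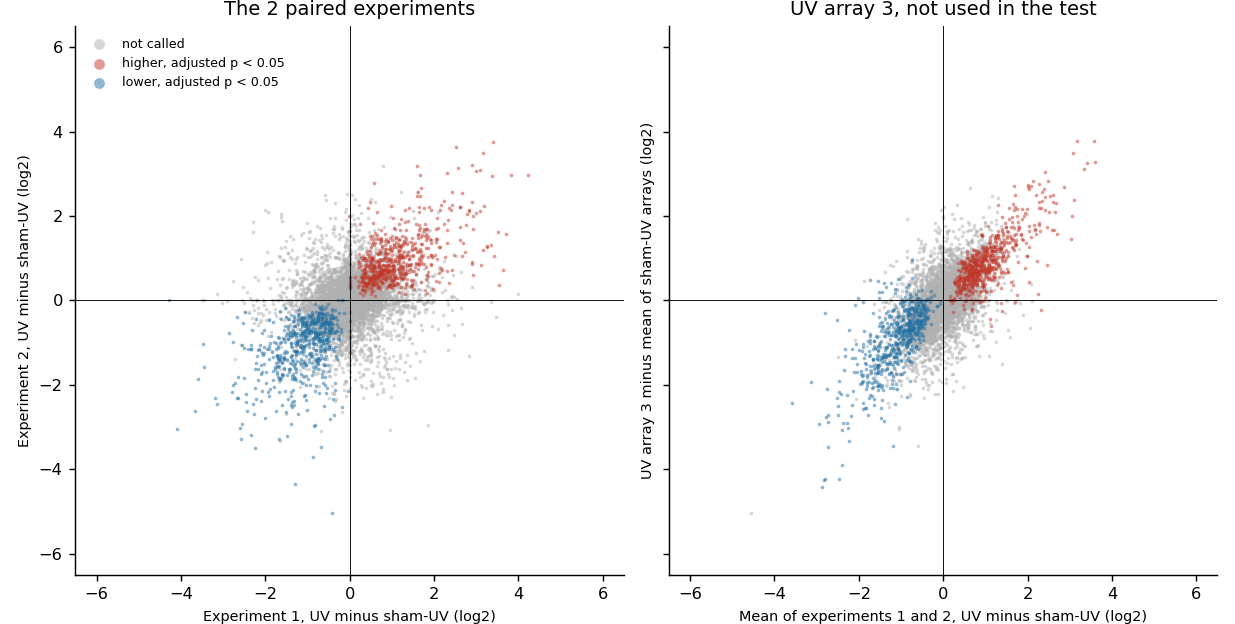
UV minus sham-UV (log2) for the 7006 probe-sets with 1 gene symbol. The left panel sets experiment 1 against experiment 2, and the right panel sets their mean against UV array 3 minus the mean of the sham-UV arrays. Red and blue points passed the test upwards and downwards, and most of them lie in the same quadrant in both panels. The axes of the right panel share the sham-UV arrays.

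The genes are described by pathway. Each count of called members is set against the shares of all genes, 10.2% upwards and 9.25% downwards. For a gene with several probe-sets the value is that of the brightest over all 35 arrays, unless another is named. A change is a difference of log2 intensities, and its error is the standard error of the fit. Where an array of experiment 1 or 2 lay at the floor in the lower group, the fold is a lower bound and is given as at least that size.

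**Figure D2:**
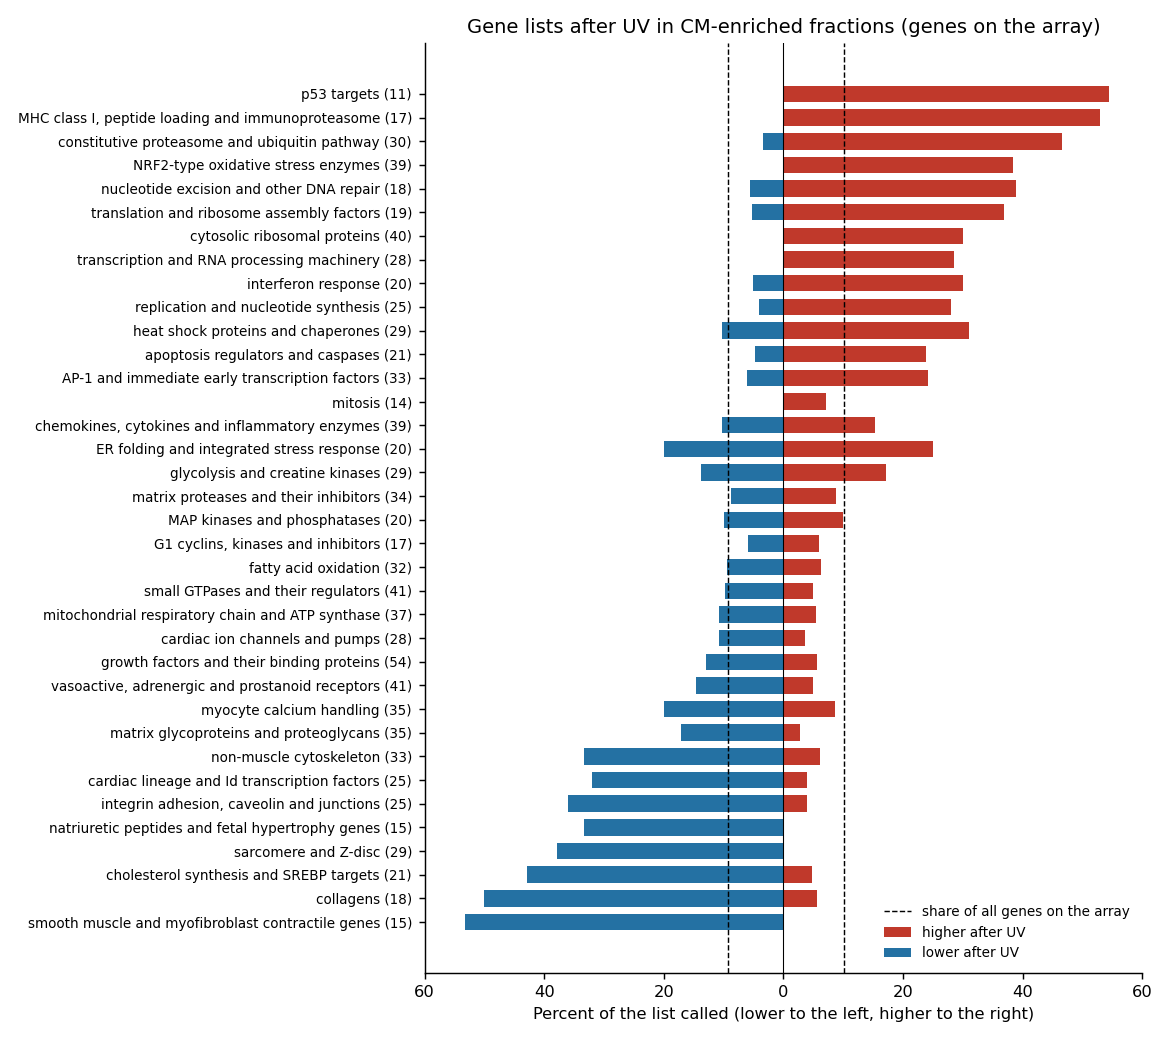
Percent of each gene list that was called higher (red, to the right) or lower (blue, to the left) after UV. Dashed lines mark the shares of all genes (10.2% and 9.25%), and the number of genes on the array is in brackets. The longest red bars are those of p53 targets, MHC class I genes and the proteasome, and the longest blue bars those of smooth muscle genes, collagens and cholesterol synthesis.

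A number of genes that p53 switches on were up-regulated. Of 11 such genes on the array 6 (54.5%) were called higher and 0 lower, with a median change of 0.74. Through the brightest probe-set alone 4 were higher, and by the gene rule 5 were higher without the pairing. Mdm2, the ubiquitin ligase that degrades p53, stood at 145 and 179.7 on the sham-UV arrays and 883, 828 and 882 on the UV arrays. The UV arrays lay close together and far above both controls, a rise of 5.30-fold (log2 change 2.41 ± 0.16, adjusted p = 4.01e-06). Cdkn1a, which encodes the cyclin-dependent kinase inhibitor p21, read 307 and 361 against 1623, 1591 and 1685, with no overlap between the groups. Its rise was 4.83-fold (log2 change 2.27 ± 0.28, adjusted p = 0.000169). Ephx1, an epoxide hydrolase that also belongs to the oxidative stress enzymes, read 87.2 and 128 against 368, 499 and 708, a rise of 4.05-fold (log2 change 2.02 ± 0.18, adjusted p = 1.9e-05). UV array 3 was its highest. Ccng1, encoding cyclin G1, was already bright and rose by less, 1.68-fold (log2 change 0.74 ± 0.10, adjusted p = 0.000418). Pcna, the sliding clamp of DNA polymerases, was called through its dimmer probe-set (1.09 ± 0.30, adjusted p = 0.0256), while the brighter gave 0.68 ± 0.31 (adjusted p = 0.162). Zmat3, an RNA binding protein, was counted in the same way, and its brighter probe-set gave -0.55 ± 0.25, in the other direction. Gadd45a and Gdf15 did not pass, with 0.23 ± 0.18 (adjusted p = 0.472) and 1.13 ± 0.37 (adjusted p = 0.0587). Among these probe-sets, those of Pcna with change 1.09 (0.0541) lost the call without experiment 1 (adjusted p in brackets), and those of Pcna with change 1.09 (0.319) lost it without experiment 2.

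DNA repair genes rose in part. Of 18 repair genes 7 (38.9%) were called higher and 1 lower, with a median change of 0.73. Of the 7, Apex1, Mpg, Polb, Fen1, Nthl1 and Lig3 act in base excision repair, which mends small base damage, and Cdk7 belongs to the transcription and repair factor TFIIH. Mpg, the glycosylase that removes alkylated bases, stood at 18.9 and 6.90 (the floor) on the sham-UV arrays and 57.5, 62.9 and 71.5 on the UV arrays. It was near the floor before UV and rose at least 5.26-fold (log2 change 2.40 ± 0.43, adjusted p = 0.00235). Apex1, the endonuclease that cuts at abasic sites, rose from a well-measured level, reading 423 and 402 against 803, 872 and 817 (2.03-fold, log2 change 1.02 ± 0.14, adjusted p = 0.000397). Fen1, the flap endonuclease, rose 2.00-fold (log2 change 1.0 ± 0.24, adjusted p = 0.0133). Cdk7, the TFIIH kinase, rose 2.01-fold (log2 change 1.01 ± 0.25, adjusted p = 0.0167), and Nthl1 and Polb had changes of 0.76 ± 0.20 and 0.71 ± 0.20. Mgmt, which reverses methylated guanine, read 447 and 398 against 218, 276 and 293 and fell 1.72-fold (log2 change -0.78 ± 0.18, adjusted p = 0.011). Of nucleotide excision repair, which removes UV lesions, Ercc1 and Ddb2 did not pass, with -0.37 ± 0.16 (adjusted p = 0.139) and 0.90 ± 0.43 (adjusted p = 0.19). The genes called higher numbered 3 without experiment 1, 1 without experiment 2 and 6 without the pairing. Of these probe-sets, those of Cdk7 (0.152), Fen1 (0.075), Mgmt (0.235) and Polb (0.316) lost the call without experiment 1 (adjusted p given), and those of Cdk7 (0.0922), Fen1 (0.139), Mpg (0.0815), Nthl1 (0.356) and Polb (0.0866) lost it without experiment 2. Unpaired, those of Polb did not pass.

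Of 25 genes for nucleotides and replication 7 (28.0%) rose and 1 fell, and the median was 0.32. The rises numbered 5 without experiment 1, 5 without experiment 2 and 3 without the pairing. Tyms, thymidylate synthase, read 39.3 and 32.9 against 92.3, 94.3 and 84.3, which is a rise of 2.59-fold (log2 change 1.37 ± 0.19, adjusted p = 0.00033). Polg2, the accessory subunit of the mitochondrial DNA polymerase, read 6.90 (the floor) and 7.54 against 71.2, 58.6 and 99.7 and rose at least 8.96-fold (log2 change 3.16 ± 0.34, adjusted p = 6.95e-05). Both were separated from the controls on all UV arrays. Top1, the topoisomerase that relaxes DNA ahead of polymerases, rose 1.45-fold (log2 change 0.54 ± 0.09, adjusted p = 0.00159). Of 14 mitosis genes 1 was called, the kinesin Kifc1 (3.36-fold, log2 change 1.75 ± 0.43, adjusted p = 0.0146), whose UV arrays were unequal at 17.9 and 16.3 against 73.5, 44.7 and 18.8. Among the called probe-sets, those of Kifc1 (0.186) and Top1 (0.0559) lost the call without experiment 1 (adjusted p given), and those of Kifc1 (0.054) lost it without experiment 2. With no pairing term, those of Kifc1 and Top1 did not pass.

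Antigen presentation genes of the MHC class I pathway formed the next group. Class I molecules show peptides of the cell's own proteins at its surface. The immunoproteasome subunits Psmb8 and Psmb9 with the activator Psme2 cut the peptides, Tap1 and Tap2 carry them into the endoplasmic reticulum, and B2m is the light chain. Of 17 genes 9 (52.9%) were called higher and 0 lower, with a median change of 0.42. Those called higher became 7 without experiment 1, 6 without experiment 2 and 5 without the pairing. Tap1 stood at 20.5 and 23.4 on the sham-UV arrays and 214, 317 and 298 on the UV arrays through its dimmer probe-set. That is a rise of 11.9-fold (log2 change 3.57 ± 0.26, adjusted p = 5.13e-06), and the brighter probe-set gave 1.59 ± 0.15. Psmb9 stood at 7.09 and 6.90 (the floor) on the sham-UV arrays and 63.8, 78.2 and 60.7 on the UV arrays, at or near the floor before UV and well above it on each UV array, a rise of at least 10.1-fold (log2 change 3.34 ± 0.39, adjusted p = 0.000116). Its brighter probe-set gave 1.94 ± 0.21. Psme2 read 281 and 191 against 633, 677 and 777 and rose 2.82-fold (log2 change 1.5 ± 0.17, adjusted p = 0.000116). Psmb8 rose 2.22-fold (log2 change 1.15 ± 0.22, adjusted p = 0.00381) and Tap2 1.56-fold (log2 change 0.64 ± 0.15, adjusted p = 0.00977). B2m changed little and its groups overlapped, at 1380.1 and 789 against 1853, 1050.0 and 1283 (1.34-fold, log2 change 0.42 ± 0.08, adjusted p = 0.00265). The class I heavy chains RT1-A, RT1-CE12 and RT1-M3-1 were called too, with 0.37 ± 0.11 for RT1-A, 0.48 ± 0.09 for RT1-CE12 and 0.92 ± 0.15 for RT1-M3-1, though probe-sets of these near-identical genes can share transcripts. Of the probe-sets called here, those of RT1-A (0.197), RT1-CE12 (0.0795) and Tap2 (0.0984) lost the call without experiment 1 (adjusted p given), and those of Psmb8 (0.0865), RT1-A (0.164) and Tap2 (0.0721) lost it without experiment 2. In a fit without pairs, those of B2m, Psmb8, RT1-A and RT1-CE12 did not pass.

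Several transcription factors and effectors of the interferon response also rose. Of 20 genes 6 (30%) were higher and 1 lower, with a median of 0.28. Irf7, which drives interferon genes, stood at 27.8 and 52.1 on the sham-UV arrays and 148, 249 and 225 on the UV arrays. All UV arrays lay above the controls, a rise of 5.05-fold (log2 change 2.34 ± 0.28, adjusted p = 0.000138). Irf1, an activator of class I and peptide loading genes, read 176 and 160.3 against 624, 446 and 396.02 and rose 3.14-fold (log2 change 1.65 ± 0.18, adjusted p = 7.22e-05). Eif2ak2, encoding the RNA-activated kinase PKR, read 48.3 and 72.4 against 239, 186 and 175 (3.57-fold, log2 change 1.83 ± 0.26, adjusted p = 0.000429). The guanylate binding protein Gbp2 lay at the floor on both sham-UV arrays and reached 37.0, 11.3 and 26.3 after UV, a rise of at least 2.96-fold (log2 change 1.57 ± 0.36, adjusted p = 0.01). Lgals3bp, a secreted glycoprotein, rose 1.69-fold (log2 change 0.76 ± 0.17, adjusted p = 0.0078), and the chemokine Cxcl10 rose 2.46-fold (log2 change 1.30 ± 0.35, adjusted p = 0.0252). Ifitm3, a membrane protein that restricts viruses, fell in both experiments although its groups overlapped, at 1415 and 1024 against 869, 851 and 1072 (log2 change -0.48, adjusted p = 0.00968). Mx1 and Mx2, other interferon effectors, were not called, with 0.06 ± 0.58 and 0.24 ± 0.39. The genes called higher numbered 3 without experiment 1, 6 without experiment 2 and 4 without the pairing. Among these probe-sets, those of Cxcl10 (0.146), Gbp2 (0.321), Ifitm3 (0.277) and Lgals3bp (0.139) lost the call without experiment 1 (adjusted p given), and those of Cxcl10 (0.164) lost it without experiment 2. Without the pairing, those of Cxcl10, Gbp2, Ifitm3 and Irf1 did not pass.

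Of these called genes 10 carry the letters of an interferon-stimulated response element near their start. The element was searched as GAAANNGAAA on both strands from 250 bases before to 50 after the start, in the RefSeq promoters of the rat build GRCr8. It was found in 5 of the 8 called class I genes with a promoter in the table and in 5 of the 6 called interferon genes. Among uncalled members of the lists 2 of 7 and 3 of 11 held it, and so did the down-regulated Ifitm3. Of all promoters of genes on the array 3.10% held it, and of all 27457 promoters 3.77%. The 10 called genes with a match are shown because they are the members that rose, each with up to 10 bases on either side of the match, 5′ to 3′ along the gene's strand, the match in capitals.
Tap1 (chr20:4668645-4668674, minus strand, first base of the match at -121): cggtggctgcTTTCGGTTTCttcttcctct
Tap2 (chr20:4652318-4652347, minus strand, -41): gcagcgaagtGAAAGCGAAAgcccgggacc
Psmb8 (chr20:4657016-4657045, minus strand, -4): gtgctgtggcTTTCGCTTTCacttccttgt
Psme2 (chr15:33052785-33052814, minus strand, -53): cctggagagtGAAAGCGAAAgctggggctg
B2m (chr3:129549170-129549199, plus strand, -150): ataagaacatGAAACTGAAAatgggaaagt
Irf7 (chr1:205800073-205800102, minus strand, -69): acagtttaggTTTCATTTTCccgagacgca
Eif2ak2 (chr6:21941128-21941157, plus strand, -16): agtccgccggGAAAACGAAAcagagagaac
Gbp2 (chr2:234005686-234005715, plus strand, -31): agttttttagTTTCACTTTCattgtcttaa
Lgals3bp (chr10:104127879-104127908, minus strand, -50): gtgttttctgGAAATCGAAActagactagg
Cxcl10 (chr14:15988816-15988842, plus strand, -243): cgctttgGAAAGTGAAActtaactcac
Tap1 and Psmb9 start 457 bases apart and are read away from each other. The match 121 bases before the start of Tap1 thus lies 336 bases from that of Psmb9, outside the window searched for Psmb9, which held none. A match is a description of the letters and no measurement of binding, and matches of different elements were searched separately and may overlap. The gamma-activated sequence TTCNNNGAA was in 2 of the 8 and 1 of the 6 called genes, and in 7.08% of promoters on the array. Further elements were searched in other lists. The sterol and p53 elements as searched were in 0 promoters on the array. The AP-1 element was in 0 of 5 immediate early genes called higher and the cyclic AMP element in 1 of 5 stress response genes. The CArG box was in 2 of 9 sarcomere, 0 of 7 smooth muscle and 1 of 10 cytoskeleton genes called lower. On the array 4.08%, 2.43% and 1.78% of promoters held these, in this order.

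Rises among subunits of the constitutive proteasome, which breaks down ubiquitin-tagged proteins, were small. Of 30 genes of this list 14 (46.7%) were higher and 1 lower, with a median change of 0.46. Psmc4, an ATPase of the regulatory particle, read 360.0 and 337 against 460.4, 451 and 570.2. The step is small, and so is the standard error of the fit (1.31-fold, log2 change 0.39 ± 0.06, adjusted p = 0.00101). Psmc1 rose 1.43-fold (log2 change 0.51 ± 0.10, adjusted p = 0.00417), and Psmc5 and Psmc3, of the same ring, had changes of 0.66 ± 0.14 and 0.68 ± 0.15. Psma1 and Psma5 of the core had changes of 0.79 ± 0.15 and 0.72 ± 0.15. Uchl1, a deubiquitinating enzyme, rose 2.06-fold (log2 change 1.04 ± 0.23, adjusted p = 0.00769). The down-regulated gene was Ube2g1, a ubiquitin-conjugating enzyme (-0.73 ± 0.21). The count of rises was 8 without experiment 1, 6 without experiment 2 and 12 without the pairing. Of these probe-sets, those of Psma1 (0.0529), Psma5 (0.0673), Psmc5 (0.224), Ube2g1 (0.0779) and Uchl1 (0.207) lost the call without experiment 1 (adjusted p given), and those of Psma5 (0.0662), Psmc1 (0.0762), Psmc3 (0.22) and Ube2g1 (0.308) lost it without experiment 2. In the unpaired fit, those of Uchl1 did not pass.

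Antioxidant and detoxifying enzymes, many of them targets of the transcription factor NRF2, included 15 up-regulated genes. Of 39 genes 15 (38.5%) were higher and 0 lower, with a median change of 0.36. Hmox1, heme oxygenase 1, stood at 376 and 231 on the sham-UV arrays and 1001, 1058 and 979.6 on the UV arrays. The UV arrays lay close together above both controls, a rise of 3.49-fold (log2 change 1.80 ± 0.17, adjusted p = 2.9e-05). Nqo1, a quinone reductase, read 124 and 108 against 286, 408 and 525 (2.96-fold, log2 change 1.57 ± 0.29, adjusted p = 0.00264). Abcb1b, a drug efflux pump, was dim before UV and clear after it, 11.8 and 25.9 against 84.0, 115 and 125, a rise of 5.62-fold (log2 change 2.49 ± 0.24, adjusted p = 3.05e-05). The glutathione transferase Gstt2 rose 2.52-fold (log2 change 1.34 ± 0.18, adjusted p = 0.000296) and Gstm1 1.71-fold (log2 change 0.77 ± 0.17, adjusted p = 0.00741). For glutathione synthesis, Gclc, the rate-limiting catalytic subunit, rose 2.37-fold (log2 change 1.24 ± 0.30, adjusted p = 0.0129) and Gss, glutathione synthetase, 2.68-fold (log2 change 1.42 ± 0.25, adjusted p = 0.00211) through its dimmer probe-set (brighter, 0.36 ± 0.22). Nfe2l2, which encodes NRF2 itself, rose 1.99-fold (log2 change 0.99 ± 0.21, adjusted p = 0.00598). Sod2, the mitochondrial superoxide dismutase, gave 0.74 ± 0.45 (adjusted p = 0.325). Higher calls numbered 8 without experiment 1, 12 without experiment 2 and 9 without the pairing. Among the called probe-sets, those of Gclc (0.0984), Gstm1 (0.147) and Nfe2l2 (0.127) lost the call without experiment 1 (adjusted p given), and those of Gclc (0.105) and Nqo1 (0.0739) lost it without experiment 2. Unpaired, those of Gclc did not pass.

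Among heat shock proteins the share of rises stood above that of all genes, and the share of falls was close to it. Of 29 chaperone genes 9 (31.0%) were higher and 3 (10.3%) lower, against 10.2% and 9.25% of all genes. The largest rise of the list was that of Hspa2, an HSP70 family member. It stood at 20.2 and 38.1 on the sham-UV arrays and 381, 299 and 270.0 on the UV arrays, which is 12.1-fold (log2 change 3.60 ± 0.37, adjusted p = 5.03e-05). Hspa1a, the inducible HSP70, read 69.0 and 75.9 against 440.4, 442 and 367 and rose 6.09-fold (log2 change 2.61 ± 0.42, adjusted p = 0.00116). Hspa13, another HSP70 relative, rose 3.29-fold (log2 change 1.72 ± 0.36, adjusted p = 0.0058), and Hsf1, the factor that switches on heat shock genes, 3.04-fold (log2 change 1.60 ± 0.35, adjusted p = 0.00805) at the probe-set with the largest change (brightest, 0.26 ± 0.14). The cochaperones Fkbp4 and Dnaja2 had smaller rises of 0.60 ± 0.15 and 0.71 ± 0.19, and Hsp90ab1 of 0.40 ± 0.11. Small heat shock proteins of muscle did not pass, with Cryab at -0.05 ± 0.19 and Hspb1 at -0.30 ± 0.26. Serpinh1, the collagen chaperone, fell (-0.44 ± 0.13), as did Dnajb5 (-1.08 ± 0.25) and Hspe1, the mitochondrial cochaperone (-0.49 ± 0.14). The letters GAANNTTC of the heat shock element, searched in the promoters as above, were in 2 of the 7 genes called higher, 2 of the 3 called lower and 6 of the 14 uncalled ones, and in 5.68% of promoters on the array. The number of rises became 2 without experiment 1, 3 without experiment 2 and 6 without the pairing. Of the probe-sets called here, those of Dnaja2 (0.162), Dnajb5 (0.136), Fkbp4 (0.126), Hsf1 with change 1.60 (0.102), Hsp90ab1 (0.167), Hspa13 (0.0564), Hspe1 (0.137) and Serpinh1 (0.227) lost the call without experiment 1 (adjusted p given), and those of Dnaja2 (0.114), Dnajb5 (0.053), Fkbp4 (0.114), Hsf1 with change 1.60 (0.0562), Hsp90ab1 (0.146), Hspa13 (0.0671), Hspe1 (0.228) and Serpinh1 (0.144) lost it without experiment 2. With no pairing term, those of Dnaja2, Dnajb5, Hsp90ab1, Hspe1 and Serpinh1 did not pass.

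Genes of folding in the endoplasmic reticulum and of the integrated stress response moved in both directions. Of 20 genes 5 (25.0%) rose and 4 (20%) fell. Ddit3, which encodes the stress factor CHOP, stood at 193 and 116 on the sham-UV arrays and 508, 428 and 412 on the UV arrays. The groups were clearly apart, a rise of 3.11-fold (log2 change 1.64 ± 0.18, adjusted p = 7.5e-05). Dnajb9, a cochaperone, rose 2.92-fold (log2 change 1.54 ± 0.38, adjusted p = 0.0163). Trib3, a target of CHOP, and Ppp1r15a, which restarts translation, had changes of 0.76 ± 0.24 and, at its dimmer probe-set, 0.68 ± 0.20. Hspa5, the main chaperone of this compartment, gave -0.42 ± 0.12 at its brightest probe-set but was not called as a gene, and the disulphide isomerase Pdia6 fell (-0.40 ± 0.08). The lipoprotein receptor Vldlr fell 2.69-fold (log2 change -1.43 ± 0.08, adjusted p = 1.57e-06), from 152 and 154 against 58.8, 54.8 and 61.3, and Nupr1, a stress-linked chromatin protein, 1.95-fold (log2 change -0.96 ± 0.17, adjusted p = 0.00188). Atf3 and Asns, commonly raised in amino acid stress, did not pass, with 0.45 ± 0.17 and -0.21 ± 0.19. Rises on this list numbered 2 without experiment 1, 4 without experiment 2 and 2 without the pairing, and those called lower 1 without experiment 1, 2 without experiment 2 and 2 without the pairing. Among these probe-sets, those of Dnajb9 (0.276), Hspa5 (0.0695), Nupr1 (0.0575), Pdia6 (0.0575), Ppp1r15a (0.101) and Trib3 (0.577) lost the call without experiment 1 (adjusted p given), and those of Hspa5 (0.361), Pdia6 (0.0639) and Ppp1r15a (0.324) lost it without experiment 2. In a fit without pairs, those of Dnajb9, Nupr1, Pdia6, Ppp1r15a and Trib3 did not pass.

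Single genes that make and process RNA rose. Of 28 genes of transcription and RNA processing 8 (28.6%) were higher and 0 lower, with a median of 0.33. Gtf2b, encoding the initiation factor TFIIB, rose 1.55-fold (log2 change 0.63 ± 0.14, adjusted p = 0.00813), and the RNA polymerase II subunit Polr2g 1.41-fold (log2 change 0.50 ± 0.09, adjusted p = 0.00207). Among RNA binding proteins Hnrnpf rose 1.92-fold (log2 change 0.94 ± 0.17, adjusted p = 0.00255) and Cirbp 3.19-fold (log2 change 1.67 ± 0.45, adjusted p = 0.0228). Those called higher numbered 3 without experiment 1, 2 without experiment 2 and 5 without the pairing. Of 19 translation and ribosome assembly factors 7 (36.8%) rose and 1 fell, with a median of 0.30. Nop58, a nucleolar protein that guides ribosomal RNA modification, stood at 269 and 204 on the sham-UV arrays and 646, 505 and 550.0 on the UV arrays. All UV arrays were above the controls, a rise of 2.44-fold (log2 change 1.29 ± 0.09, adjusted p = 4.56e-06). Ncl, nucleolin, rose 2.09-fold (log2 change 1.07 ± 0.20, adjusted p = 0.00302). Eif2b1, Eif2b4 and Eif2b5 are subunits of the exchange factor eIF2B and changed by 0.82 ± 0.10, 0.52 ± 0.08 and 1.08 ± 0.13. The helicase Eif4a2 read 1256 and 1393 against 2415, 2797 and 2627 and rose 1.96-fold (log2 change 0.97 ± 0.14, adjusted p = 0.00044). Eif4ebp1, a repressor of cap-dependent translation, fell 1.70-fold (log2 change -0.77 ± 0.21, adjusted p = 0.0251). Of 40 cytosolic ribosomal proteins 12 (30%) were higher and 0 lower, and through the brightest probe-set alone 6 were higher. These steps were small, with a median change of 0.20 over the list. Rpl14 had 0.48 ± 0.13, Rpl19 0.33 ± 0.09 and Rpsa 0.30 ± 0.09. The count of rises was 5 without experiment 1, 6 without experiment 2 and 3 without the pairing, and 6 with scaling alone, without quantile normalization. Of these probe-sets, those of Cirbp (0.218), Eif4ebp1 (0.291), Ncl (0.0611), Rpl14 (0.197), Rpl19 (0.155) and Rpsa (0.305) lost the call without experiment 1 (adjusted p given), and those of Cirbp (0.0879), Eif4ebp1 (0.0644), Gtf2b (0.186), Polr2g (0.0671), Rpl14 (0.0865), Rpl19 (0.149) and Rpsa (0.106) lost it without experiment 2. Without the pairing, those of Cirbp, Rpl14, Rpl19 and Rpsa did not pass.

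**Figure D3:**
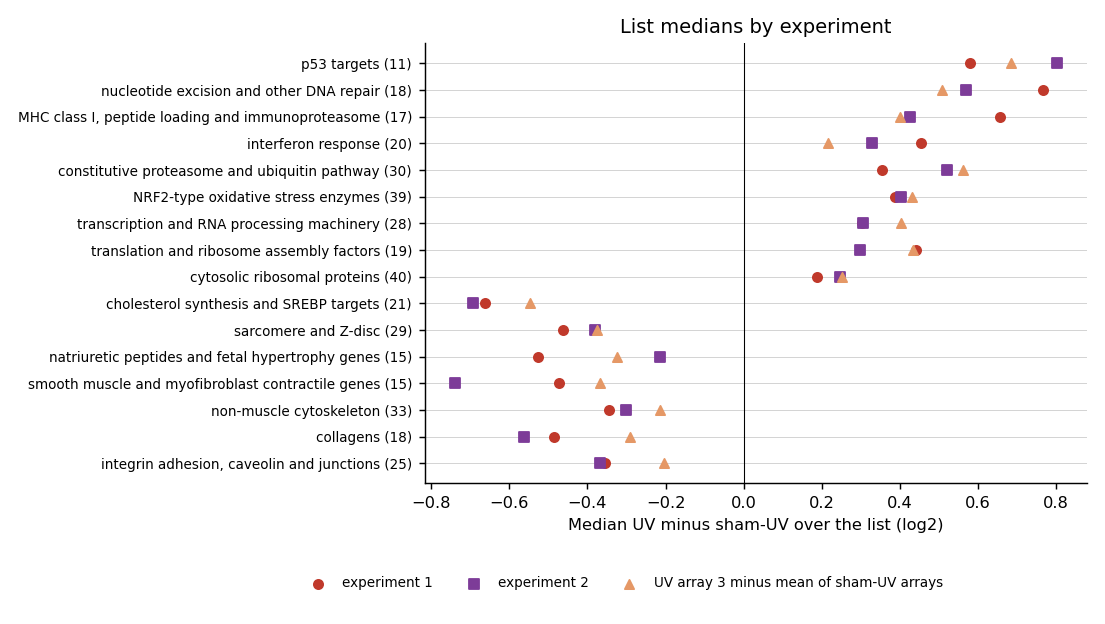
Median UV minus sham-UV (log2) of 16 gene lists in experiment 1 (circles), experiment 2 (squares) and for UV array 3 against the mean of the sham-UV arrays (triangles). The number of genes is in brackets, and the lists were chosen for display after their values were seen. For each of them the 3 values have the same sign, with p53 targets at 0.58, 0.80 and 0.68 and cholesterol synthesis at -0.66, -0.69 and -0.55.

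Some immediate early and stress-induced transcription factors were raised 24 h after the exposure, and most did not pass. Of 33 genes 8 (24.2%) rose and 2 fell. Fosl1, a partner of Jun in AP-1, stood at 7.05 and 6.90 (the floor) on the sham-UV arrays and 52.2, 63.8 and 28.1 on the UV arrays. It was at or near the floor in the controls and rose at least 8.27-fold (log2 change 3.05 ± 0.30, adjusted p = 3.94e-05). Fos itself rose less, 1.69-fold (log2 change 0.76 ± 0.23, adjusted p = 0.0392), and Jun and Junb were not called, with 0.19 ± 0.19 and 0.33 ± 0.20. The Krüppel-like factors Klf4 and Klf10 rose 2.40-fold (log2 change 1.26 ± 0.22, adjusted p = 0.00207) and 2.55-fold (log2 change 1.35 ± 0.17, adjusted p = 0.000233). Myc, which drives growth genes, read 39.9 and 46.0 against 92.3, 111 and 112 and rose 2.36-fold (log2 change 1.24 ± 0.28, adjusted p = 0.00982). Ier3, an early response gene of survival, fell 2.10-fold (log2 change -1.07 ± 0.15, adjusted p = 0.000418). Higher calls numbered 5 without experiment 1, 5 without experiment 2 and 4 without the pairing. In the MAP kinase list 2 of 20 rose and 2 fell (10% each), near the shares of all genes. Dusp1, the phosphatase that switches off stress kinases, read 289 and 209 against 68.1, 88.0 and 93.7 and fell 3.17-fold (log2 change -1.67 ± 0.39, adjusted p = 0.0123). Among the called probe-sets, those of Dusp1 (0.211) and Myc (0.0843) lost the call without experiment 1 (adjusted p given), and those of Fos (0.493) and Myc (0.0875) lost it without experiment 2. In the unpaired fit, those of Dusp1, Fos, Fosl1 and Ier3 did not pass.

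Among 21 apoptosis genes 5 (23.8%) were higher and 1 lower. Bcl2l11, which encodes the death activator BIM, rose through each of its probe-sets, with 0.87 ± 0.24 at the brightest and 2.71 ± 0.34 at the dimmest. The dimmest read 7.22 and 7.71 against 65.5, 36.3 and 22.1, so UV array 1 was highest. Birc2, an inhibitor of cell death, read 7.10 and 6.90 (the floor) against 52.6, 35 and 22.3 and rose at least 6.13-fold (log2 change 2.62 ± 0.47, adjusted p = 0.00235). Casp2 and Casp6, both death proteases, rose 1.68-fold (log2 change 0.75 ± 0.14, adjusted p = 0.00264) and 2.06-fold (log2 change 1.05 ± 0.21, adjusted p = 0.00473). Pawr, a death-promoting repressor, read 194 and 216 against 71.6, 66.4 and 77.7 and fell 2.97-fold (log2 change -1.57 ± 0.24, adjusted p = 0.000722). Bcl2l1, a survival factor, gave 0.30 ± 0.18 (adjusted p = 0.318). The number of rises became 2 without experiment 1, 2 without experiment 2 and 3 without the pairing. Among 39 inflammatory genes 6 (15.4%) rose and 4 (10.3%) fell. The membrane-bound chemokine Cx3cl1 rose 1.84-fold (log2 change 0.88 ± 0.14, adjusted p = 0.00121) and the adhesion molecule Icam1 1.47-fold (log2 change 0.56 ± 0.14, adjusted p = 0.0165). Pla2g4a, the phospholipase that frees arachidonic acid, and Ptgs2, the cyclooxygenase that uses it, fell 4.50-fold (log2 change -2.17 ± 0.18, adjusted p = 1.15e-05) and 2.52-fold (log2 change -1.33 ± 0.33, adjusted p = 0.0157). Ccl2 gave 0.41 ± 0.37 (adjusted p = 0.56). In this list 1 gene was higher and 1 lower without the pairing. Of the probe-sets called here, those of Bcl2l11 with change 0.87 (0.271) and Birc2 (0.0544) lost the call without experiment 1 (adjusted p given), and those of Bcl2l11 with change 0.87 (0.0827), Casp2 (0.0827), Casp6 (0.0886), Icam1 (0.414) and Ptgs2 (0.252) lost it without experiment 2. Unpaired, those of Bcl2l11 with change 0.87, Cx3cl1, Icam1 and Ptgs2 did not pass. Ptgs2 also lost the call with a higher floor.

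Cholesterol synthesis was the metabolic pathway with the largest share of down-regulated genes. Its enzymes are driven by the transcription factor SREBP2, which Insig1 holds back when sterols are high. Of 21 genes 9 (42.9%) were lower and 1, the fatty acid synthase Fasn, was higher through its dimmer probe-sets, with a median change of -0.54. Fdps, farnesyl diphosphate synthase, stood at 1767 and 2432 on the sham-UV arrays and 533, 754 and 652 on the UV arrays. All UV arrays lay far below both controls, a fall of 3.27-fold (log2 change -1.71 ± 0.06, adjusted p = 6.63e-09). Its other probe-sets gave -1.63 ± 0.13 and -1.70 ± 0.26. Mvk, mevalonate kinase, was dim and read 54.6 and 79.8 against 10.1, 13.0 and 13.3 through the probe-set with the larger fall (5.77-fold, log2 change -2.53 ± 0.26, adjusted p = 5.12e-05), and its brighter probe-set gave -1.77 ± 0.24. Insig1 read 378 and 499 against 155, 136 and 115 and fell 2.99-fold (log2 change -1.58 ± 0.20, adjusted p = 0.000209). The later enzymes Fdft1, Sqle and Msmo1 fell 1.93-fold, 1.85-fold and 1.79-fold, with log2 changes of -0.95 ± 0.11, -0.89 ± 0.14 and -0.84 ± 0.12. Dhcr7, which makes the last step to cholesterol, fell 1.80-fold (log2 change -0.85 ± 0.20, adjusted p = 0.0136). Idi1 and Cyp51 did not pass, with -0.54 ± 0.23 and -0.39 ± 0.14. The count of falls was 6 without experiment 1, 8 without experiment 2 and 2 without the pairing. Among these probe-sets, those of Dhcr7 (0.148) lost the call without experiment 1 (adjusted p given), and those of Dhcr7 (0.0709) lost it without experiment 2. With no pairing term, those of Dhcr7, Fdft1, Fdps with change -1.63, Fdps with change -1.70, Msmo1 and Sqle did not pass.

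Cholesterol genes did not fall in this way in cultures of fibroblasts after the same dose. Those cultures came from the same kind of hearts but had been subcultured, were confluent and were not elutriated, with 3 UV and 3 sham-UV arrays. There 10 of the 21 genes were higher and 1 lower, with a median of 0.49. Of all 4736 genes 661 were higher and 616 lower in those cultures. The difference between the 2 changes, CM-enriched fractions minus fibroblasts, was tested over all probe-sets. It was above 0 for 313 of them (3.58%) and below 0 for 240 (2.75%). Of the cholesterol genes 12 had a lower change in the CM-enriched fractions and 0 a higher one. For Fdps the changes were -1.71 ± 0.06 and 0.01 ± 0.05 (adjusted p of the difference = 1.32e-07), for Sqle -0.89 ± 0.14 and 0.52 ± 0.11 (0.00094), and for Msmo1 -0.84 ± 0.12 and 0.49 ± 0.09 (0.000406). Fdft1 and Insig1 also differed (0.00082 and 0.00451). Cell type, culture time, serum and elutriation differ between the populations and cannot be told apart.

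**Figure D4:**
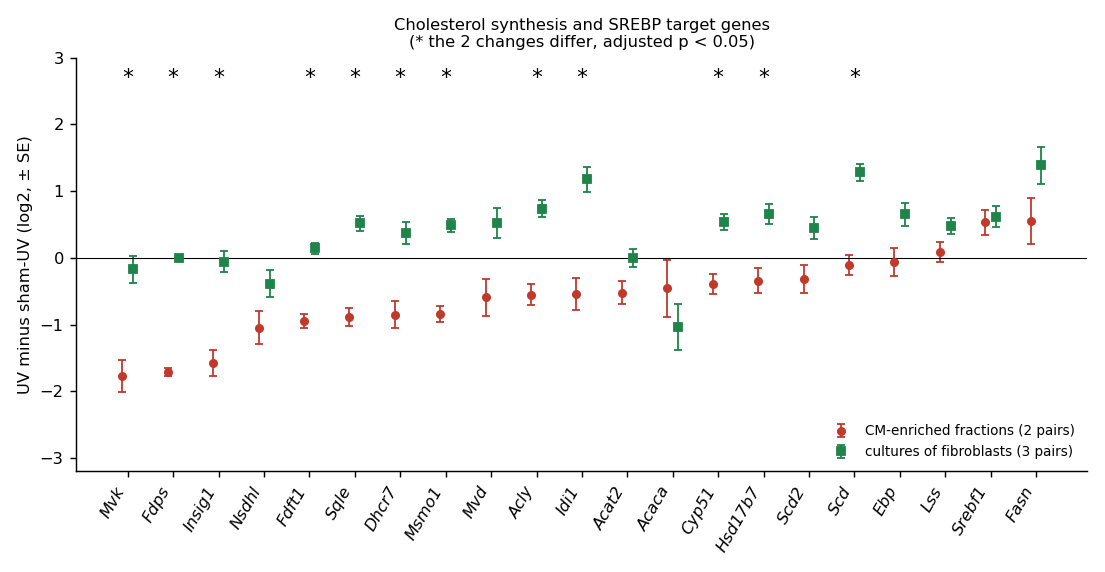
UV minus sham-UV (log2, ± SE) of the 21 cholesterol synthesis and SREBP target genes, through the brightest probe-set, in CM-enriched fractions (red circles, 2 pairs) and in cultures of fibroblasts (green squares, 3 pairs). Asterisks mark the 12 genes whose changes differ (adjusted p under 0.05). At each of them the red point is the lower.

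Genes of the contractile apparatus fell or did not pass. Of 29 sarcomere and Z-disc genes 11 (37.9%) were lower and 0 higher, with a median change of -0.47. Ankrd1, a stretch-responsive protein bound to titin, stood at 6800.4 and 6268 on the sham-UV arrays and 1615, 1932 and 2535 on the UV arrays. Every UV array lay below both controls, a fall of 3.70-fold (log2 change -1.89 ± 0.13, adjusted p = 4.56e-06). Csrp3, the muscle LIM protein of the Z-disc, read 2440.1 and 2299.7 against 827, 968 and 874 and fell 2.65-fold (log2 change -1.40 ± 0.11, adjusted p = 8.68e-06). Fhl2, another LIM protein, fell 1.99-fold (log2 change -0.99 ± 0.09, adjusted p = 1.61e-05), and Pdlim5 2.92-fold (log2 change -1.55 ± 0.30, adjusted p = 0.00371). Skeletal alpha-actin, Acta1, read 1653 and 2473 against 812, 1195 and 847 (2.05-fold, log2 change -1.04 ± 0.16, adjusted p = 0.000935). The atrial light chain Myl7 read 832 and 1960.1 against 258, 924 and 709.6, so that sham-UV array 1 lay below UV array 2, but in both experiments UV was lower (2.61-fold, log2 change -1.39 ± 0.18, adjusted p = 0.000303). The inhibitory troponin Tnni3 fell 1.40-fold (log2 change -0.48 ± 0.13, adjusted p = 0.0257), and UV arrays and controls overlapped. The main thick and thin filament genes were not called. Myh6 had -0.30 ± 0.42 (adjusted p = 0.785), Myh7 -0.29 ± 0.19 (0.354), Tnnt2 -0.14 ± 0.11 (0.434) and Actc1 -0.37 ± 0.12 (0.0557). Over the 12 CM markers 2 were lower (Csrp3 and Tnni3), the median change was -0.29, and the summed intensity was 57565 and 59832 on the sham-UV arrays and 46308, 48534 and 47865 on the UV arrays. Lower calls numbered 8 without experiment 1, 8 without experiment 2 and 2 without the pairing. Of these probe-sets, those of Tnni3 (0.345) lost the call without experiment 1 (adjusted p given), and those of Pdlim5 (0.0687) lost it without experiment 2. In a fit without pairs, those of Acta1, Csrp3, Fhl2, Myl7 and Tnni3 did not pass.

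Among genes of wall stress and of the fetal programme a minority fell. Of 15, 5 (33.3%) were lower and 0 higher, and 2 were lower without the pairing. Nppb, the B-type natriuretic peptide, stood at 5716 and 5118 on the sham-UV arrays and 1534, 2558 and 2141 on the UV arrays. The groups were apart and the fall was 2.73-fold (log2 change -1.45 ± 0.18, adjusted p = 0.000226), whereas Nppa, the atrial peptide, gave 0.02 ± 0.13 (adjusted p = 1). In calcium handling 7 of 35 genes (20%) fell and 3 (8.57%) rose. Pln, phospholamban, which holds back the calcium pump, read 1788 and 1251 against 565, 423 and 407 and fell 3.06-fold (log2 change -1.61 ± 0.12, adjusted p = 7.12e-06). The pump itself, Atp2a2, had -0.38 ± 0.18 (adjusted p = 0.181), the release channel Ryr2 -0.23 ± 0.52 and the store protein Casq2 -0.25 ± 0.10. Slc8a1, the sodium-calcium exchanger, was called through 3 of its 5 probe-sets, of which the brightest called read 227 and 357 against 81.8, 71.1 and 76.2 (3.73-fold, log2 change -1.90 ± 0.41, adjusted p = 0.00707). The T-type calcium channel Cacna1g fell 2.34-fold (log2 change -1.23 ± 0.12, adjusted p = 3.29e-05) and Ppp3ca, a catalytic subunit of calcineurin, 2.24-fold (log2 change -1.16 ± 0.16, adjusted p = 0.0004). Among 28 channels and pumps 3 (10.7%) fell and 1 rose, close to the shares of all genes. The potassium channel Kcnq1 read 72.3 and 158 against 18.1, 22.8 and 7.14, a fall of 5.26-fold (log2 change -2.40 ± 0.31, adjusted p = 0.000243). The gap junction gene Gja1 gave -0.69 ± 0.38. The leak channel Kcnk3 fell too (-1.39 ± 0.29). Among the called probe-sets, those of Kcnk3 (0.0557) lost the call without experiment 1 (adjusted p given), and those of Kcnk3 (0.0621) and Slc8a1 (0.134) lost it without experiment 2. Without the pairing, those of Kcnk3, Nppb and Pln did not pass.

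Receptors for vasoactive hormones included large falls. Of 41 genes 6 (14.6%) fell and 2 (4.88%) rose, and the rises numbered 0 without experiment 1, 4 without experiment 2 and 0 without the pairing. Agtr1a, the type 1 angiotensin receptor, stood at 118 and 57.2 on the sham-UV arrays and 6.90 (the floor), 6.90 (the floor) and 15.4 on the UV arrays. It reached the floor on UV arrays 1 and 2, a fall of at least 11.9-fold (log2 change -3.58 ± 0.24, adjusted p = 4.01e-06), and all 4 of its probe-sets were called lower. The probe-sets of Agtr1a and of its close copy Agtr1b can share transcripts. Ptgfr, the prostaglandin F receptor, read 123 and 129 against 9.73, 20.9 and 33.0 and fell 8.83-fold (log2 change -3.14 ± 0.26, adjusted p = 1.3e-05), with -1.11 ± 0.32 at its brightest probe-set. The muscarinic receptor Chrm2 fell 2.73-fold (log2 change -1.45 ± 0.21, adjusted p = 0.00058), the mineralocorticoid receptor Nr3c2 2.33-fold (log2 change -1.22 ± 0.29, adjusted p = 0.0121), and the receptor kinase Grk5 2.83-fold (log2 change -1.5 ± 0.25, adjusted p = 0.0014). Lpar1, a receptor for lysophosphatidic acid, fell (-1.43 ± 0.30), and P2ry2, a nucleotide receptor, rose (0.78 ± 0.18). The adrenergic receptors Adra1a, Adra1b and Adrb1 were not called, with -0.46 ± 0.66, -0.60 ± 0.25 and -0.51 ± 0.51. Of the probe-sets called here, those of Grk5 (0.057), P2ry2 (0.23) and Ptgfr with change -1.11 (0.343) lost the call without experiment 1 (adjusted p given), and those of Lpar1 (0.16), Nr3c2 (0.207) and Ptgfr with change -1.11 (0.0695) lost it without experiment 2. In the unpaired fit, those of Lpar1 and P2ry2 did not pass.

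Smooth muscle and cytoskeletal genes included many falls. Of 15 smooth muscle and myofibroblast genes 8 (53.3%) were lower and 0 higher, with a median change of -0.54. Acta2, smooth muscle actin, which immature CMs also express, stood at 3378 and 3639.5 on the sham-UV arrays and 689.6, 669 and 469.7 on the UV arrays (5.16-fold, log2 change -2.37 ± 0.22, adjusted p = 2.89e-05), and its brightest probe-set gave -0.80 ± 0.14. Csrp2 read 1169.8 and 1019.8 against 382, 364 and 487 and fell 2.93-fold (log2 change -1.55 ± 0.18, adjusted p = 0.000103). Csrp1 and Cnn3, further actin-linked proteins, fell 2.18-fold (log2 change -1.12 ± 0.16, adjusted p = 0.000481) and 2.11-fold (log2 change -1.07 ± 0.13, adjusted p = 0.000146). Cnn1 gave 0.01 ± 0.30 and Myh11 -0.54 ± 0.82, neither called, whereas Tagln (transgelin) and Actg2 fell with -0.45 ± 0.12 and -1.03 ± 0.25, both with overlapping groups. Falls on this list numbered 7 without experiment 1, 4 without experiment 2 and 4 without the pairing. Of 33 non-muscle cytoskeleton genes 11 (33.3%) fell and 2 rose. Actg1, cytoplasmic actin, read 3870.0 and 4131 against 1248, 2091 and 2568 (2.47-fold, log2 change -1.31 ± 0.17, adjusted p = 0.000253). Actb fell 1.43-fold (log2 change -0.52 ± 0.11, adjusted p = 0.00732), Vim, vimentin, 1.80-fold (log2 change -0.85 ± 0.14, adjusted p = 0.00117) and Tpm4 2.16-fold (log2 change -1.11 ± 0.21, adjusted p = 0.00342). Myl12b, a regulatory light chain, rose 1.89-fold (log2 change 0.92 ± 0.11, adjusted p = 0.00016). In this list those called lower numbered 6 without experiment 1, 10 without experiment 2 and 6 without the pairing. Among these probe-sets, those of Actb (0.151) lost the call without experiment 1 (adjusted p given), and those of Actg2 (0.244) and Tagln (0.369) lost it without experiment 2. Unpaired, those of Actg2 and Tagln did not pass.

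Among matrix genes, which non-myocytes express more than CMs, falls outnumbered rises. Of 18 collagen and collagen-processing genes 9 (50%) were lower and 1 higher, with a median of -0.55. Col1a2 stood at 1603 and 3016 on the sham-UV arrays and 574, 1127 and 1536 on the UV arrays. UV array 3 was close to sham-UV array 1, and the fall was 2.73-fold (log2 change -1.45 ± 0.11, adjusted p = 6.05e-06). Col5a2 fell 2.36-fold (log2 change -1.24 ± 0.11, adjusted p = 1.62e-05) and the cross-linking enzyme Lox 1.43-fold (log2 change -0.52 ± 0.13, adjusted p = 0.0195). Col1a1 read 1676 and 5171 against 1195, 2347 and 3796, with overlapping groups but UV lower in both experiments (1.76-fold, log2 change -0.81 ± 0.20, adjusted p = 0.0136). Col3a1 and Eln, elastin, fell with -0.82 ± 0.19 and -1.08 ± 0.26. Those called lower on the collagen list numbered 7 without experiment 1, 7 without experiment 2 and 2 without the pairing. Beside these values, the summed intensity of the 11 fibroblast markers was 12213 and 17822 on the sham-UV arrays and 7555, 9648 and 12544 on the UV arrays, and 4 of the 11 were called lower (Col1a1, Col1a2, Col3a1 and Vim). The markers Dcn, Fn1, Lum and Pdgfra were not called, with -0.33 ± 0.16, -0.30 ± 0.12, -0.33 ± 0.28 and -0.34 ± 0.17. The sums overlap through UV array 3. The part of the share of non-myocytes in these falls was not tested. Among 35 other matrix genes 6 (17.1%) fell and 1 rose, with 8 without experiment 1, 5 without experiment 2 and 2 without the pairing for the falls. Sdc2, a cell surface proteoglycan, fell 3.32-fold (log2 change -1.73 ± 0.17, adjusted p = 3.81e-05). Mmp14, a membrane-bound protease, fell 1.77-fold (log2 change -0.82 ± 0.11, adjusted p = 0.000253), Timp1, an inhibitor of such proteases, rose 1.62-fold (log2 change 0.70 ± 0.11, adjusted p = 0.00121) at its dimmer probe-set (brighter, 0.31 ± 0.12), and Mmp2 gave -0.01 ± 0.11. Of these probe-sets, those of Col3a1 (0.173) and Lox (0.116) lost the call without experiment 1 (adjusted p given), and those of Col1a1 (0.28), Eln (0.346) and Lox (0.151) lost it without experiment 2. With no pairing term, those of Col1a1, Col3a1, Eln, Lox, Sdc2 and Timp1 with change 0.70 did not pass.

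Adhesion genes and cardiac transcription factors fell in part. Of 25 integrin, caveolin and junction genes 9 (36.0%) fell and 1 rose. Cav1, the coat protein of caveolae, fell 2.36-fold (log2 change -1.24 ± 0.29, adjusted p = 0.0123), the muscle integrin Itga7 1.72-fold (log2 change -0.78 ± 0.08, adjusted p = 7.12e-05), and Cdh2, the cadherin of the intercalated disc, 1.80-fold (log2 change -0.85 ± 0.13, adjusted p = 0.000722). Itgb1 had -0.37 ± 0.15. Those called lower numbered 5 without experiment 1, 6 without experiment 2 and 2 without the pairing. Of 25 cardiac and Id transcription factors 8 (32.0%) fell and 1 rose. The nuclear factors Nfib and Nfia fell 2.98-fold (log2 change -1.58 ± 0.16, adjusted p = 4.26e-05) and 2.44-fold (log2 change -1.28 ± 0.28, adjusted p = 0.00792), and Nkx2-5, a factor of the cardiac lineage, read 713 and 971 against 452, 576 and 556 (1.63-fold, log2 change -0.71 ± 0.19, adjusted p = 0.023). Gata4 gave -0.32 ± 0.17 and was not called. Id2, an inhibitor of helix-loop-helix factors, was the exception and rose 2.45-fold (log2 change 1.29 ± 0.19, adjusted p = 0.000722), while Id3 fell 1.68-fold (log2 change -0.75 ± 0.22, adjusted p = 0.0325). The count of falls was 4 without experiment 1, 5 without experiment 2 and 4 without the pairing. Among the called probe-sets, those of Cav1 (0.214), Id3 (0.495) and Nkx2-5 (0.127) lost the call without experiment 1 (adjusted p given), and those of Nfia (0.117) and Nkx2-5 (0.17) lost it without experiment 2. In a fit without pairs, those of Cav1, Id3, Itga7 and Nkx2-5 did not pass.

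In energy metabolism single genes were called. Of 37 respiratory chain genes 4 (10.8%) fell and 2 rose, with a median of -0.04, and of 32 fatty acid oxidation genes 3 (9.38%) fell and 2 rose. Both lie near the shares of all genes, and 0 respiratory chain genes were called without experiment 1, and 0 rose and 1 fell without the pairing. Fabp3, the fatty acid carrier of heart muscle, read 3479 and 2568 against 1829, 1794 and 1886 and fell 1.65-fold (log2 change -0.72 ± 0.08, adjusted p = 6.99e-05). Cpt1b gave -0.16 ± 0.14 and Acadm 0.21 ± 0.13. Of 29 glycolysis genes 5 (17.2%) rose and 4 (13.8%) fell. Slc2a1, the glucose transporter GLUT1, read 851 and 545 against 209.5, 192 and 178 and fell 3.39-fold (log2 change -1.76 ± 0.20, adjusted p = 8.22e-05), with -2.33 ± 0.19 at its dimmer probe-set. Hk1, hexokinase 1, fell 1.77-fold (log2 change -0.82 ± 0.17, adjusted p = 0.00495). Also on this list, Pfkfb2, Eno3 and Pgam2 rose with 2.47 ± 0.45, 1.71 ± 0.45 and 1.40 ± 0.33. The creatine kinases Ckm and Ckb gave -0.50 ± 0.23 and 0.06 ± 0.17, neither called. Glycolysis genes called higher numbered 1 without experiment 1, 3 without experiment 2 and 2 without the pairing, and 0 were lower without the pairing. Of the probe-sets called here, those of Eno3 (0.277) and Pfkfb2 (0.0631) lost the call without experiment 1 (adjusted p given), and those of Hk1 (0.115) and Pgam2 (0.36) lost it without experiment 2. Without the pairing, those of Fabp3, Hk1, Pfkfb2, Slc2a1 with change -1.76 and Slc2a1 with change -2.33 did not pass.

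Among growth factors and their binding proteins few genes changed. Of 54 genes 7 (13.0%) fell and 3 (5.56%) rose. Bmp6 read 181 and 188 against 61.6, 72.3 and 71.1 and fell 2.77-fold (log2 change -1.47 ± 0.18, adjusted p = 0.000158). Ltbp1, which stores latent TGF-beta, fell 2.53-fold (log2 change -1.34 ± 0.20, adjusted p = 0.000621), Tgfb3 1.79-fold (log2 change -0.84 ± 0.21, adjusted p = 0.0149) and the receptor Igf1r 2.15-fold (log2 change -1.10 ± 0.20, adjusted p = 0.00265). Pdgfa rose 1.88-fold (log2 change 0.91 ± 0.21, adjusted p = 0.0103). Tgfb1, Vegfa and Fgf2 were not called, with -0.09 ± 0.29, -0.18 ± 0.26 and -0.08 ± 0.48. Lower calls numbered 6 without experiment 1, 7 without experiment 2 and 3 without the pairing. The imprinted transcript H19 and Igfbp3 were called, yet their sham-UV arrays disagreed. H19 read 1085 and 225 against 281, 102 and 122, so UV array 1 lay above sham-UV array 2, although UV was lower in both experiments (log2 change -1.55, adjusted p = 0.00114). Igfbp3 read 746 and 86.2 against 181, 53.3 and 104 (-1.37, adjusted p = 0.00417). Among these probe-sets, those of Igfbp3 (0.155), Pdgfa (0.347) and Tgfb3 (0.112) lost the call without experiment 1 (adjusted p given), and those of Tgfb3 (0.111) lost it without experiment 2. In the unpaired fit, those of H19, Igf1r, Igfbp3, Pdgfa and Tgfb3 did not pass.

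Several of the largest changes fell outside these lists. Of the 332 probe-sets that rose over 2-fold 68 rose over 4-fold, and of the 363 that fell as far 47 fell over 4-fold. Atn1, which encodes atrophin 1, stood at 7.46 and 17.4 on the sham-UV arrays and 106, 137 and 109.9 on the UV arrays and rose 10.6-fold (log2 change 3.41 ± 0.84, adjusted p = 0.0156). The histone gene Hist4h4 read 22.1 and 16.5 against 127, 205 and 215 (8.45-fold, log2 change 3.08 ± 0.50, adjusted p = 0.00123), Zbtb24, a zinc finger protein, 8.34 and 7.55 against 71.4, 64.6 and 41.4 (8.56-fold, log2 change 3.10 ± 0.49, adjusted p = 0.00112), and Taf1c, a subunit of the RNA polymerase I selectivity factor, 15.8 and 12.7 against 93.5, 112 and 91.4 (7.24-fold, log2 change 2.86 ± 0.27, adjusted p = 3.05e-05). Their groups did not overlap. G0s2, an inhibitor of fat breakdown, read 423 and 391 against 46.3, 78.7 and 95.6 and fell 6.74-fold (log2 change -2.75 ± 0.25, adjusted p = 2.61e-05). The growth hormone receptor Ghr fell 6.65-fold (log2 change -2.73 ± 0.28, adjusted p = 5.12e-05) through 1 of its probe-sets. Inpp4a, a phosphoinositide phosphatase, and Plcl1, a phospholipase relative, reached the floor on all 3 UV arrays, with falls of at least 7.65-fold (log2 change -2.94 ± 0.29, adjusted p = 4.24e-05) and at least 5.63-fold (log2 change -2.49 ± 0.19, adjusted p = 5.58e-06). Of the probe-sets called higher 28 were at the floor on both sham-UV arrays, and of those called lower 56 were at the floor on UV arrays 1 and 2, so that they had no measured level there. Of these probe-sets, those of Atn1 (0.174) lost the call without experiment 1 (adjusted p given), and those of Atn1 (0.0683) lost it without experiment 2.

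Beyond cholesterol synthesis, the changes of several stress genes differed from those in fibroblasts. Ddit3 rose in CM-enriched fractions and had -0.11 ± 0.15 in fibroblasts (adjusted p of the difference = 0.00114). Trib3 had 0.76 ± 0.24 and -1.09 ± 0.20 (0.00442), and Gstt2 1.34 ± 0.18 and -0.19 ± 0.14 (0.00235). Slc2a1 had -1.76 ± 0.20 and -0.02 ± 0.16 (0.00195), and Ptgfr, at a dimmer probe-set, -3.14 ± 0.26 and -0.00 ± 0.22 (0.000312). Ier3 fell in CM-enriched fractions and had 0.70 ± 0.12 in fibroblasts (0.000312). Abcb1b rose in both and by less in CM-enriched fractions, with 2.49 ± 0.24 and 4.24 ± 0.19 (0.00585). Of the other genes described, Mdm2 (0.918), Cdkn1a (0.162), Tap1 (0.251), Hspa1a (0.294) and Ankrd1 (0.0863) did not pass this test, which does not show that their changes were equal. Without experiment 1 the counts above and below 0 were 200 and 147, without experiment 2 285 and 303, and without the pairing 52 and 26.

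CM-enriched fractions were also exposed to 8.5 Gy of X-rays, with 3 exposed and 3 sham-IR arrays of their own, harvested and elutriated alike 24 h later. The study's methods give a lower share of CMs in the fractions of the X-ray cultures than in those of the UV cultures. The part of this in the differences below was not tested. After X-rays 17 genes were called higher and 26 lower. The UV change was above the X-ray change for 386 probe-sets (4.42%) and below it for 397 (4.54%), and without the pairing for 138 and 100. Ephx1, Ccng1 and Cdkn1a did not pass this test, with X-ray changes of 2.19 ± 0.15, 0.71 ± 0.08 and 1.73 ± 0.23 (adjusted p of the difference = 0.788, 0.979 and 0.439). Mdm2 rose more after UV, since its X-ray change was 1.09 ± 0.13 (0.00245). The immune and chaperone genes Psmb9, Tap1 and Hspa2 had X-ray changes of -0.31 ± 0.17, 0.20 ± 0.13 and 0.16 ± 0.30 and differed from UV (0.000475, 0.00123 and 0.00106). Ankrd1 and Csrp3, which fell after UV, had -0.02 ± 0.11 and -0.02 ± 0.09 (9.37e-05 and 0.00017). Kifc1 moved in opposite directions, with 1.75 ± 0.43 after UV and -3.56 ± 0.35 after X-rays (0.000158). Sprr1a, a cornified envelope protein, rose after X-rays (2.56 ± 0.24) and had -0.45 ± 0.29 after UV (0.000575). In the mitosis list 12 of 14 genes fell after X-rays and 0 after UV.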

How the data were processed

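The members and gene lists were chosen with earlier results of these data known. The authors deposited 1 linear intensity per probe-set and array from Affymetrix rat genome arrays, scaled per the values to a 2% trimmed mean of about 200.4 or 1002. Scanner files and the software that made the intensities were not used here. RNA of an exposed culture and of its control was labelled together with 1 kit per the study's methods, so the number in the title was taken as a block. The check of the pairing, the correlation of sham-UV array 1 minus 2 with UV array 1 minus 2 across probe-sets, gave 0.244, across genes, which are no replicates. The labels give separate experiments but no animals.

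Of 8799 probe-sets 59 controls were left out. Intensities were divided by the 75th percentile of their array, raised to the 20th percentile of all scaled values, put on the log2 scale and quantile normalized, then tested with limma 3.58.1 in R 4.3.3 with an intensity trend of the variance over all 35 arrays, with 11 residual degrees of freedom. Adjusted p-values are Benjamini-Hochberg's over 8740 probe-sets, with a threshold of 0.05. Of these probe-sets 7006 carry 1 gene symbol in GEO's platform annotation, 6985 of them updated through the gene number, 308 carry several and 1426 none, which are unnamed here. The test was run on simulated data with independent normal noise drawn from the spreads of the same fit. Such data cannot show whether the groups share a spread. Named are the 15 largest rises and falls called in both pairs, for each list its key members and the 6 or fewer best by adjusted p, the 6 largest differences each way from fibroblasts and X-rays, and the cell type markers. Not all of these are printed. Cxcl10, Ddb2, Eif4ebp1, Ercc1, Gss, Gstm1, Hsf1, Hspe1, Nfe2l2, Pdlim5, RT1-A, Serpinh1, Trib3, Ube2g1 and Uchl1 were added after their values were seen. Alternatives were the block (none, or random with statmod 1.5.0), scaling, floor, a pseudocount of 16, a filter on dim probe-sets, the variance trend, single experiments left out and a threshold of 0.005. The number of arrays limits the precision. Promoters were those of RefSeq on GRCr8, of which 3871 of 27457 belong to genes on the array. Chromosome positions of the genes were not used otherwise.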

Additional observations from a re-analysis of the deposited data

Results flagged for a closer look

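The values below are the UV change in CM-enriched fractions minus that in cultures of fibroblasts (log2), for genes of the report where limma's test of this difference passed (Benjamini-Hochberg adjusted p under 0.05). Cell type, culture time, serum and elutriation go together and cannot be told apart.

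Cholesterol genes had the lower change in CM-enriched fractions. The difference was -1.72, -1.69 and -1.69 for the probe-sets of Fdps, -2.05 and -1.60 for those of Mvk, -1.72 for Idi1, -1.53 for Insig1 and -1.40 for Sqle. It was -1.33 for Msmo1, -1.23 for Dhcr7, -1.09 for Fdft1 and -0.93 for Cyp51. In glucose uptake it was -2.78 and -1.74 for the probe-sets of Slc2a1, and for the fatty acid carrier Fabp3 -0.47.

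Among membrane receptors and channels the difference was -3.14 for a dimmer probe-set of Ptgfr, -2.40 for Kcnq1, -1.17 for Cacna1g and -1.11 for Chrm2. The brightest probe-set of Ptgfr is not among the flagged values. Matrix and cytoskeleton genes with a lower change were Col1a2 (-1.0), Actg1 (-0.85), Mmp14 (-0.65), Lox (-0.64), Cnn3 (-0.61), Sparcl1 (-2.58) and Timp1 (-0.58). Stress and immune genes with a lower change were Gbp2 (-2.39), Ier3 (-1.78), Abcb1b (-1.75), Jun (-1.28), Ephx1 (-0.87), Ifitm3 (-0.77), Psmc1 (-0.76), Psmc4 (-0.61) and Eif2b4 (-0.40).

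Genes with the higher change in CM-enriched fractions included contractile and calcium genes, whose change in the fibroblast cultures was the lower one. These genes were Actc1 (2.19), Atp2a2 (1.37), Tnni3 (0.92), Tagln (0.90), Myl12b (0.79), Tnnt2 (0.62) and Casq2 (0.47). By the study's account the fibroblast cultures kept a few CMs. In those cultures 11 of the 12 CM markers were called lower, with a median of -1.06, beside 616 of all 4736 genes. The part of the remaining CMs in these values was not tested. Transcription factors were Nfia (2.32), Taf1c (2.16), Myc (1.84), Id2 (1.36), Nfib (1.15) and Klf10 (0.92). Stress and repair genes were Trib3 (1.85), Ddit3 (1.75), Gstt2 (1.53), Mgmt (1.05), Hmox1 (0.84), Apex1 (0.79) and Casp2 (0.77). The others were Pdgfa (1.61), Igf1r (1.13), RT1-M3-1 (1.04), Plcl1 (0.95), Cdh2 (0.91) and Vldlr (0.63). Groups of 2 or 3 arrays were not tested for a single outlying array.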

How the results depend on the processing

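Without the replicate block that pairs UV and sham-UV arrays of an experiment, 466 probe-sets were higher and 349 lower, of which 427 and 323 were shared with the paired calls. The differences from fibroblasts then numbered 52 above and 26 below 0, and those from X-rays 138 and 100. The unpaired fit without UV array 3 gave 364 higher and 298 lower, 42 and 28 differences from fibroblasts, and 104 and 93 from X-rays. With the 5 arrays alone and no block, 15 were higher and 14 lower. Without 1 experiment the counts ranged from 427 to 534 higher and from 437 to 568 lower, the differences from fibroblasts from 200 to 285 above and from 147 to 303 below 0, and those from X-rays from 288 to 312 and from 315 to 376. A random block gave 189 and 126 differences from fibroblasts. At an adjusted p under 0.005 the counts were 283 and 312, against fibroblasts 70 and 58, and against X-rays 103 and 143. With scaling alone 661 were higher and 910 lower. The other settings kept the 6 counts within 1.5 times, and no named value changed sign where it was called. With a floor at the 40th percentile, Gbp2, Kcnk3, Lpar1 and Ptgs2 were among the named genes that lost the call. Of 183 called probe-sets named in the text, 64 lost the call without experiment 1, 60 without experiment 2, 73 without the block and 16 with scaling alone. Among the called probe-sets chosen by the naming rules, printed or not, 224 lost the call with the 5 arrays alone and 9 kept it. With a random block 47 of them lost it and 186 kept it. The causes were not tested. The 3 UV and 2 sham-UV arrays limit the precision, and values at the floor have no order.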

Other observations

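Some pathway lists with no account in the report had counts near the shares of all genes. Of 17 G1 cyclins, kinases and inhibitors 1 (5.88%) was called higher and 1 lower. Of 41 small GTPases and their regulators 2 (4.88%) were higher and 4 (9.76%) lower, and of 34 matrix proteases and inhibitors 3 (8.82%) were higher and 3 lower, or 0 and 2 without the pairing. Pecam1, an endothelial adhesion gene, stood at 372 and 44.2 on the sham-UV arrays and 77.4, 38.0 and 55.6 on the UV arrays, so that sham-UV array 1 was far above the others, with a log2 change of -1.24 ± 0.51 (limma, adjusted p = 0.124). Sparcl1, a matrix glycoprotein, stood at 522 and 40.1 on the sham-UV arrays and 42.9, 10.9 and 13.0 on the UV arrays and was called lower (log2 change -2.74, adjusted p = 0.000138). Sham-UV array 1 was again far above the others, and sham-UV array 2 lay within the range of the UV arrays.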
